A study of Danio rerio with 6 samples.

Results

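The cytosolic ribosomal proteins are the proteins of the ribosomes that translate nuclear mRNA, and their genes were followed here in tails of zebrafish (Danio rerio) embryos that have or lack a heartbeat. The members were the entries of the deposited gene table with a ribosomal protein symbol (rpl or rps followed by a number, with an optional letter or copy suffix, and the stalk proteins and rpsa), read without regard to case and without the S6 kinases. They came to 82 of 25745 genes, 48 of the large and 34 of the small subunit. The names covered 74 of 79 core proteins of the vertebrate ribosome, and 5, among them rps27 and rps30, had no member under the rule. Genes outside the rule that encode rps30 (faua) and rps27 (rps27.1 and rps27.2) are described apart. The 6 libraries were of poly(A) RNA, all from the strain AB at 28 hours after fertilisation, 3 of wild-type embryos (WT) and 3 of sih mutants, whose hearts do not contract. The name stands for silent heart, and the locus is tnnt2a, which encodes the troponin T of heart muscle. The labels give neither the allele nor the number of tails in a library. The comparison addresses how tail transcripts depend on the beating heart.

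The large subunit joins amino acids and passes the growing chain through its exit tunnel, and the small subunit holds the mRNA and reads its codons. In vertebrates most mRNAs of their proteins start with a pyrimidine tract (the TOP motif). Through it the kinase mTOR and the RNA-binding protein LARP1 adjust the translation of these mRNAs together. A shortage of single ribosomal proteins is known to stabilise p53, and in humans the loss of a single copy of several of these genes causes Diamond-Blackfan anaemia, a failure of red cell production.

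The libraries held between 21240839 and 27222955 reads assigned to genes. tnnt2a had 0, 9 and 4 reads in WT and 0, 0 and 3 in sih replicates 1, 2 and 3, too few to check the labels. Tail markers were found in every library. There, 12 genes of skeletal muscle took 8.46% to 11.3% of reads in WT and 9.20% to 12.6% in sih. By contrast, 10 genes of heart, forebrain and eye summed to 30 to 81 reads per library. On these few reads their share was lower in sih at each replicate number. It was 0.000356%, 0.000287% and 0.000189% in WT and 0.000141%, 0.000200% and 0.000149% in sih replicates 1, 2 and 3. Libraries of the same replicate number resembled each other, with correlations of their deviations from the genotype means of 0.932, 0.884 and 0.852 in pairs 1, 2 and 3. Changes are therefore given from a fit blocked by replicate number (the paired fit), as log2 differences of normalised counts plus 1, sih minus WT, ± SE from limma, with n = 3 pairs. limma draws each gene's variance towards that of genes of similar abundance, so the SE is not the gene's own spread over pairs. For rpl21, with 0.28, 0.27 and 0.27 in pairs 1, 2 and 3, the SE was 0.078. A gene is said to have risen or fallen where its adjusted p was at most 0.05 in the paired fit. The adjustment was that of Benjamini-Hochberg over all genes tested.

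Ribosomal protein transcripts were higher in sih tails than in the WT tails of the same replicate number, by a similar step in every pair. Of the 81 members tested, 65 rose and 1, rpl7l1, fell, against 2.77% of all 22813 genes tested that rose and 2.07% that fell. In the large subunit 40 of 48 rose, with a median change of 0.35 over its members. In the small subunit 25 of 33 rose, with a median of 0.38. The medians correspond to 1.27-fold and 1.30-fold, and the median over all genes tested was -0.0042. By pair, the median was 0.35, 0.31 and 0.34 for the large and 0.34, 0.36 and 0.43 for the small subunit in pairs 1, 2 and 3. The sih library was the higher in each of the 3 pairs for 46 large subunit and 32 small subunit genes, as it was for 20.2% of all genes tested. The remaining member, the rps20 entry ENSDARG00000095880, had 2 reads in WT replicate 2, 1 in sih replicate 2 and 0 elsewhere, and was below the minimum for testing.

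These calls rest on the pairing, on all 3 pairs and on the scaling. With library totals 13 large and 7 small subunit genes rose, beside 0.788% of all genes. The medians were 0.16 and 0.20, against -0.18 over all genes. After cyclic loess 4 and 1 rose, beside 2.28% of all genes, with medians of 0.12 and 0.15 against 0.013. Without the block, limma called 0 of 22813 genes (235 at an unadjusted p under 0.05), edgeR's quasi-likelihood test called 0 and DESeq2 called 48 (0.202% of all genes higher and 0.00877% lower). No member was among them or reached an unadjusted p under 0.05 in the unblocked limma fit. In the paired fit, 0 members (and 0 genes of the table) were called without pair 1. The medians there were 0.34 (large) and 0.40 (small). An unadjusted limma p under 0.05 was reached by 76 of 81 members and by 2602 of all 22813 genes. Without pair 2, 14 members were called higher (0.964% of all genes higher, 1.24% lower), and without pair 3 only rplp2 was (0.697% higher, 0.373% lower). edgeR's quasi-likelihood test with the block called 75 members higher, including all 65, and 1 lower, beside 4.39% and 3.48% of all genes. DESeq2 with the block also called 75 higher and 1 lower, beside 2.93% and 1.39%.

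**Figure D1:**
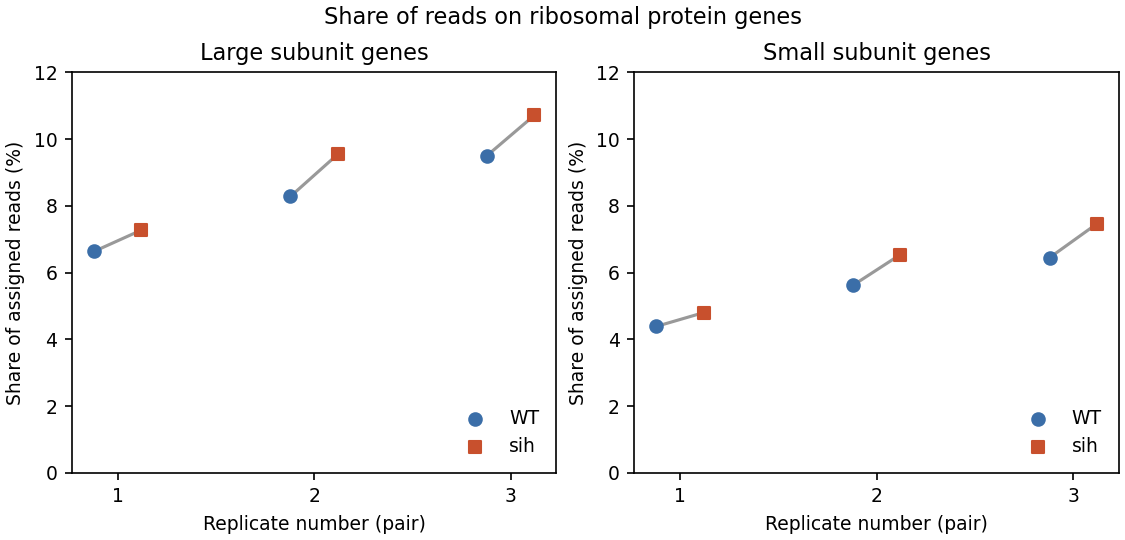
Share of all reads assigned to genes that fell on large subunit (left) and small subunit (right) genes, in percent, for each WT library (circle) and sih library (square), with a line joining libraries of the same replicate number. The sih library is the higher in every pair, and replicate 1 is the lowest and replicate 3 the highest number in both genotypes.

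A share of reads within a library does not depend on how libraries are scaled. All members together took 11.0%, 13.9% and 15.9% of reads in WT replicates 1, 2 and 3 and 12.1%, 16.1% and 18.2% in sih replicates 1, 2 and 3. The large subunit took 6.63%, 8.28% and 9.50% in WT and 7.27%, 9.54% and 10.7% in sih. The small subunit took 4.39%, 5.62% and 6.44% in WT and 4.80%, 6.53% and 7.46% in sih. WT and sih overlapped, with sih replicate 1 below WT replicates 2 and 3. The difference of the means, 1.03 percentage points for the large and 0.781 for the small subunit, had p = 0.4 in each case by the exact permutation test (two-sided, n = 3 against 3, smallest possible p = 0.1). Over the 3 pairs, all of which went the same way, the exact sign-flip test gave p = 0.25, the smallest it can give. The ratio of large to small subunit reads was 1.51, 1.47 and 1.47 in WT and 1.51, 1.46 and 1.44 in sih, a difference within the spread (exact permutation p = 0.6, two-sided). Without sih replicate 3 that difference was 0.000633 in place of -0.0166.

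**Figure D2:**
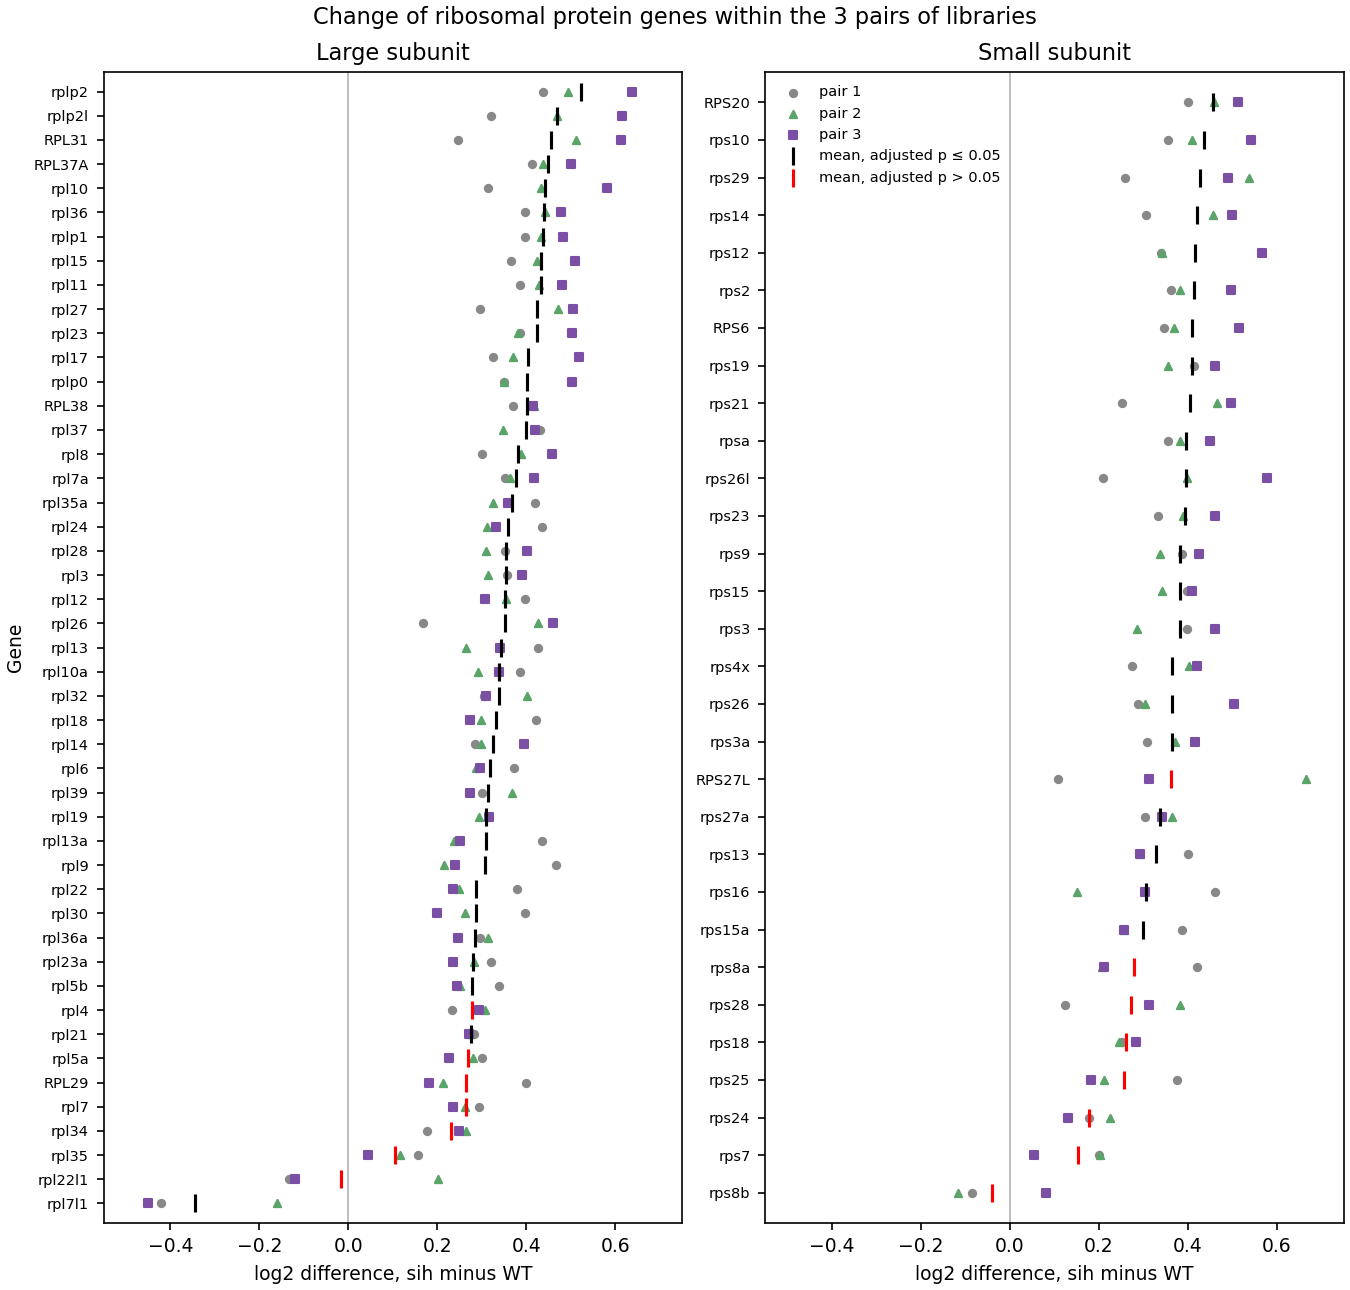
Log2 difference of normalised counts plus 1, sih minus WT, of the tested large subunit (left) and small subunit (right) genes that are reported by name, in pairs 1, 2 and 3 (symbols) and their mean (bar, black where the adjusted p of the paired limma fit was at most 0.05, red where it was not). All of them other than rpl7l1, rpl22l1 and rps8b lie to the right of 0 in every pair.

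The member with the steepest rise was a protein of the large subunit's stalk, which recruits the elongation factors. Differences between members were not tested. rplp2 (ENSDARG00000022833), an acidic stalk protein, was at 9544, 9424 and 12270.1 normalised counts in WT replicates 1, 2 and 3 and at 12925, 13262 and 19081 in sih replicates 1, 2 and 3. The lowest sih library lay above the highest WT library. This held for 2 of the 81 members tested, rplp2 and rps16, a share close to the 2.1% of all genes. rplp2 rose by 0.52 ± 0.076 (adjusted p = 0.000404), with 0.44, 0.49 and 0.64 in pairs 1, 2 and 3. Its paralog rplp2l rose by 0.47 ± 0.081, the stalk partner rplp1 by 0.44 ± 0.079 and the stalk base rplp0 by 0.40 ± 0.085.

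Proteins that carry the 5S rRNA, and that bind the p53 regulator Mdm2 when they are not in a ribosome, were higher as well. rpl11 (ENSDARG00000043509) was at 15179, 23897 and 30987 normalised counts in WT replicates 1, 2 and 3 and at 19836, 32179 and 43215 in sih replicates 1, 2 and 3. Within each pair the sih library was the higher, while WT replicate 3 exceeded both other WT libraries and sih replicate 1. rpl11 rose by 0.43 ± 0.075 (adjusted p = 0.00243). Of the other 5S carriers, rpl5b rose by 0.28 ± 0.078 (adjusted p = 0.0439) and rpl5a was at 0.27 ± 0.077 with an adjusted p = 0.0509, just short of the threshold.

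Around the site of peptide bond formation, rpl3 rose by 0.35 ± 0.083, rpl8 by 0.38 ± 0.082 and rpl10, which joins late and lies near the P site, by 0.44 ± 0.083. At the exit tunnel, RPL31 (ENSDARG00000053365) was at 23584, 32043 and 56415 normalised counts in WT replicates 1, 2 and 3 and at 27957, 45681 and 86194 in sih replicates 1, 2 and 3. The genotypes overlapped, with sih replicates 1 and 2 below WT replicate 3. RPL31 rose by 0.46 ± 0.085 (adjusted p = 0.00388), the tunnel proteins rpl17 and rpl39 by 0.40 ± 0.080 and 0.31 ± 0.076, and rpl23a and rpl26, which lie at the tunnel mouth, by 0.28 ± 0.077 and 0.35 ± 0.083. rpl4, which reaches into the tunnel, was at 0.28 ± 0.082 (adjusted p = 0.0572) and rpl35, also at its mouth, at 0.11 ± 0.075 (adjusted p = 0.493). The difference between rpl35 and its neighbours was not tested.

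After the P2 proteins and RPL31, the steepest large subunit rises were those of RPL37A (0.45 ± 0.076), rpl10, rpl36 (0.44 ± 0.074) and rplp1. Further rises were those of rpl15, rpl27, rpl23, RPL38 and rpl37 (0.43, 0.42, 0.42, 0.40 and 0.40), whose adjusted p was 0.00428 or lower. rpl35a and rpl15 rose by 0.37 ± 0.076 and 0.43 ± 0.080. Of the large subunit genes not yet given, rpl6, rpl7a, rpl9, rpl10a, rpl12, rpl13, rpl13a, rpl14, rpl18, rpl19, rpl21, rpl22, rpl24, rpl28, rpl30, rpl32 and rpl36a rose, and lay between 0.28 (rpl21) and 0.38 (rpl7a).

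In the small subunit, the steepest rise was that of RPS20 (ENSDARG00000036044), a protein of the subunit's head. It was at 27954, 38608 and 49587 normalised counts in WT replicates 1, 2 and 3 and at 36879.5, 53075 and 70754 in sih replicates 1, 2 and 3. The 3 WT and the 3 sih libraries overlapped, with sih replicate 1 below WT replicates 2 and 3. RPS20 rose by 0.46 ± 0.078 (adjusted p = 0.00198), and rps10, also of the head, by 0.44 ± 0.078. rps19, the gene most often mutated in human Diamond-Blackfan anaemia, rose by 0.41 ± 0.076 (adjusted p = 0.00393). The genes mutated in that anaemia were not compared as a set.

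RPS6, the substrate of the S6 kinases, was at 49061, 64084 and 104324 normalised counts in WT replicates 1, 2 and 3 and at 62362, 82754 and 149094 in sih replicates 1, 2 and 3. The sih library exceeded the WT library of its number in all 3 pairs, while sih replicates 1 and 2 lay below WT replicate 3. RPS6 rose by 0.41 ± 0.083. At the mRNA entry channel rps2 and rps3 rose by 0.41 ± 0.085 and 0.38 ± 0.081, and near the decoding centre rps23 by 0.39 ± 0.078 and rps15 by 0.38 ± 0.076. On the side where the mRNA leaves, rps14 and rpsa rose by 0.42 ± 0.080 and 0.40 ± 0.084, while rps28 was at 0.27 ± 0.079 (adjusted p = 0.0522). rps16, whose tail reaches the P site tRNA, was at 19557, 26064 and 24864 normalised counts in WT replicates 1, 2 and 3 and at 26910.1, 28945 and 30705 in sih replicates 1, 2 and 3. Its 3 sih libraries lay above its 3 WT libraries, as for 2.1% of all genes, and it rose by 0.31 ± 0.080 (adjusted p = 0.0341). rps29, rps12 and rps21 rose by 0.43 ± 0.081, 0.42 ± 0.081 and 0.40 ± 0.079, and rps27a, which is made as a fusion with ubiquitin, by 0.34 ± 0.078. Of the small subunit genes not yet given, rps3a, rps4x, rps9, rps13, rps15a, rps26 and rps26l rose, and lay between 0.30 (rps15a) and 0.39 (rps26l).

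The members that did not pass numbered 15. Of these, 13 had a positive change, and rpl7, RPL29, rpl5a, rpl4, rps8a, rps18, rps25, rps28 and RPS27L had an adjusted p between 0.0509 and 0.0637 and changes from 0.26 (rps25) to 0.36 (RPS27L). rpl21 and rpl5b, with adjusted p = 0.0472 and 0.0439, lay just inside the threshold. RPS27L, a p53-responsive paralog of RPS27 in mammals, was at 541, 795 and 1274 normalised counts in WT replicates 1, 2 and 3 and at 583, 1261 and 1582 in sih replicates 1, 2 and 3. rpl34 was at 0.23 ± 0.076 (adjusted p = 0.0906). The smallest positive changes were those of rpl35, rps7 and rps24. rps7 (ENSDARG00000042566) was at 31219, 43781 and 43616 normalised counts in WT replicates 1, 2 and 3 and at 35893, 50385 and 45271 in sih replicates 1, 2 and 3, a change of 0.15 ± 0.078 (adjusted p = 0.311) with 0.20, 0.20 and 0.054 in pairs 1, 2 and 3. rps24 was at 0.18 ± 0.076 (adjusted p = 0.208). With edgeR's quasi-likelihood test and the block, the members without a call were rpl35, rps7, rps24, rpl22l1 and rps8b, and rps7 and rps24 lay at 0.15 (adjusted p = 0.228) and 0.18 (adjusted p = 0.144).

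The single member that fell was rpl7l1 (ENSDARG00000042864), whose yeast counterpart Rlp7 works in the assembly of the large subunit and is not part of the finished ribosome. It was at 687, 1619.9 and 1388 normalised counts in WT replicates 1, 2 and 3 and at 513, 1449 and 1016 in sih replicates 1, 2 and 3. Each sih library lay below the WT library of its number, and the groups overlapped, with replicate 1 the lowest in both. rpl7l1 fell in the paired fit (-0.34 ± 0.094, adjusted p = 0.0393), with -0.42, -0.16 and -0.45 in pairs 1, 2 and 3. The call was lost without any 1 of the pairs (adjusted p = 0.424, 0.0664 and 0.348 without pairs 1, 2 and 3). rpl22l1 (ENSDARG00000010244), the paralog of the large subunit protein rpl22, was at 5379, 12831 and 11554 normalised counts in WT replicates 1, 2 and 3 and at 4902, 14764 and 10632 in sih replicates 1, 2 and 3. It was lower in sih in pairs 1 and 3 and higher in pair 2, a change of -0.017 ± 0.082 (adjusted p = 0.943).

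**Figure D3:**
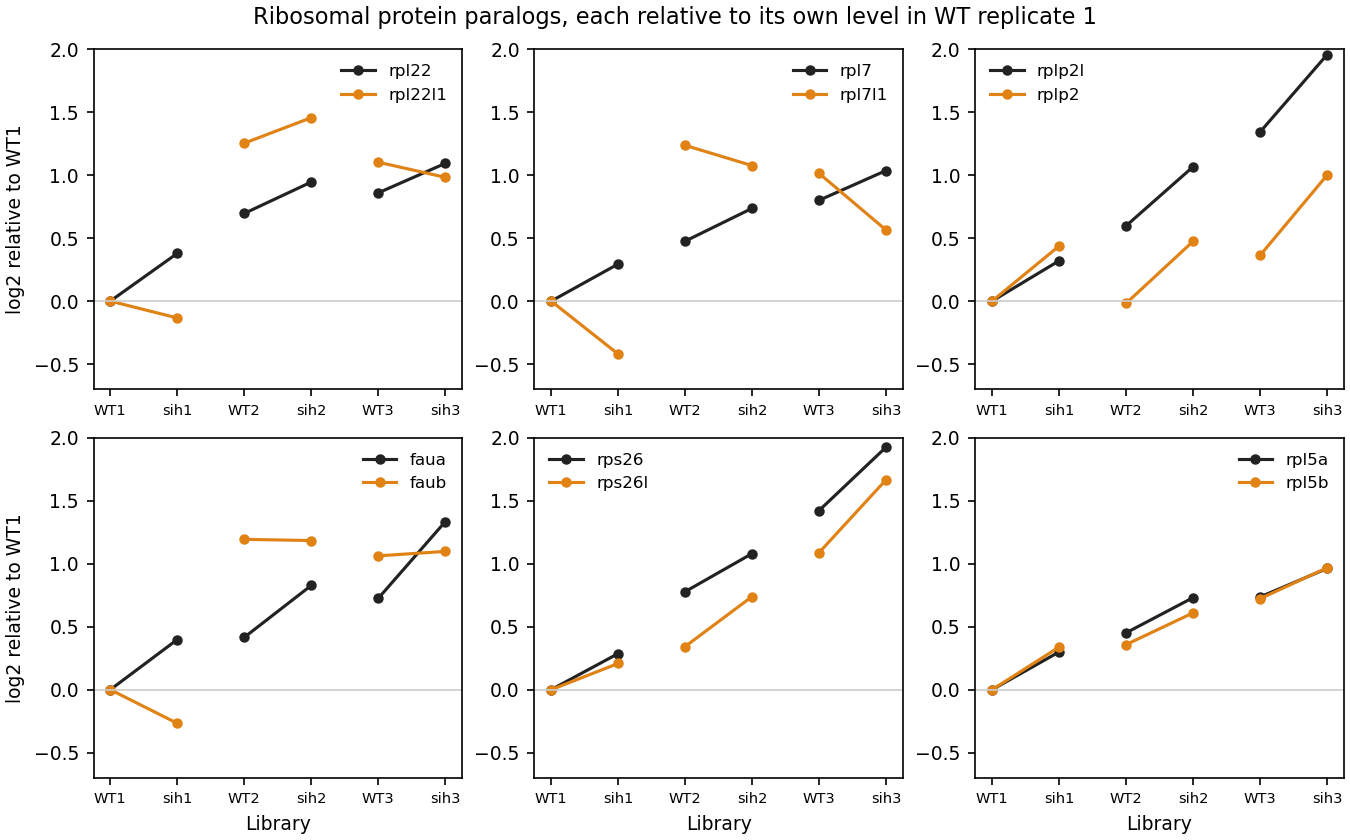
Log2 of the level in each library relative to the same gene's level in WT replicate 1, for 6 pairs of paralogs, with lines joining the WT and sih library of a replicate number. Within every pair of libraries rpl22, rpl7 and faua go up from WT to sih, and the lines of rpl22l1, rpl7l1 and faub go up less than those of their partners or go down.

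Paralogs were set beside each other in 9 pairs as the ratio of reads within a library, which shows how the mix shifts and not which gene is the more expressed. The ratio of rpl22l1 to rpl22 was 0.493, 0.726 and 0.584 in WT replicates 1, 2 and 3 and 0.346, 0.703 and 0.457 in sih replicates 1, 2 and 3, lower in sih within each pair. That of rpl7l1 to rpl7 was 0.0160, 0.0271 and 0.0185 in WT replicates 1, 2 and 3 and 0.00973, 0.0202 and 0.0115 in sih replicates 1, 2 and 3, and likewise lower in sih in each pair. Also lower in sih in each pair was the ratio of faub to faua, the genes of the rps30 fusion protein, at 0.0166, 0.0285 and 0.0210 in WT replicates 1, 2 and 3 and 0.0104, 0.0213 and 0.0141 in sih replicates 1, 2 and 3. The log2 ratio differed by -0.51, -0.047 and -0.35 between sih and WT for rpl22l1, by -0.72, -0.42 and -0.69 for rpl7l1 and by -0.67, -0.42 and -0.57 for faub in pairs 1, 2 and 3. The denominators rpl22, rpl7 and faua were each higher in sih in every pair, so a partner without that rise gives a lower ratio. Of all genes tested, 20.2% were higher and 18.2% lower in sih in each of the 3 pairs.

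The ratio of rpl5b to rpl5a, by contrast, lay between 0.990 and 1.11 over the 6 libraries. That of rplp2 to rplp2l differed mainly by replicate number and was slightly higher in sih in each pair, at 0.445, 0.291 and 0.226 in WT replicates 1, 2 and 3 and 0.483, 0.296 and 0.230 in sih replicates 1, 2 and 3. The ratio of rps26l to rps26 was 1.94, 1.43 and 1.54 in WT replicates 1, 2 and 3 and 1.84, 1.53 and 1.62 in sih replicates 1, 2 and 3. That of rps27.2 to rps27.1 ran from 0.643 to 0.734, and that of RPS27L to rps27.1 from 0.0260 to 0.0453. In both, the genotypes overlapped. The exact permutation test of the genotypes (two-sided, 3 against 3) cannot give a p below 0.1, so no ratio could pass at 0.05. It ignores the pairing of libraries and gave p from 0.300 to 1. Benjamini-Hochberg values over the 9 paralog pairs ran from 0.900 to 1. The ratio of rps8b to rps8a was also lower in sih in each pair, with log2 differences of -0.51, -0.33 and -0.13, on few reads. rps8b had 25, 39 and 22 reads in WT and 19, 32 and 16 in sih, while its paralog rps8a was at 37805, 52337 and 57865 normalised counts in WT replicates 1, 2 and 3 and at 50611, 60379.6 and 67026 in sih replicates 1, 2 and 3. How the counting treated reads that match both members of a paralog pair is not given in the sources used here, so the division of reads within pairs is uncertain.

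**Figure D4:**
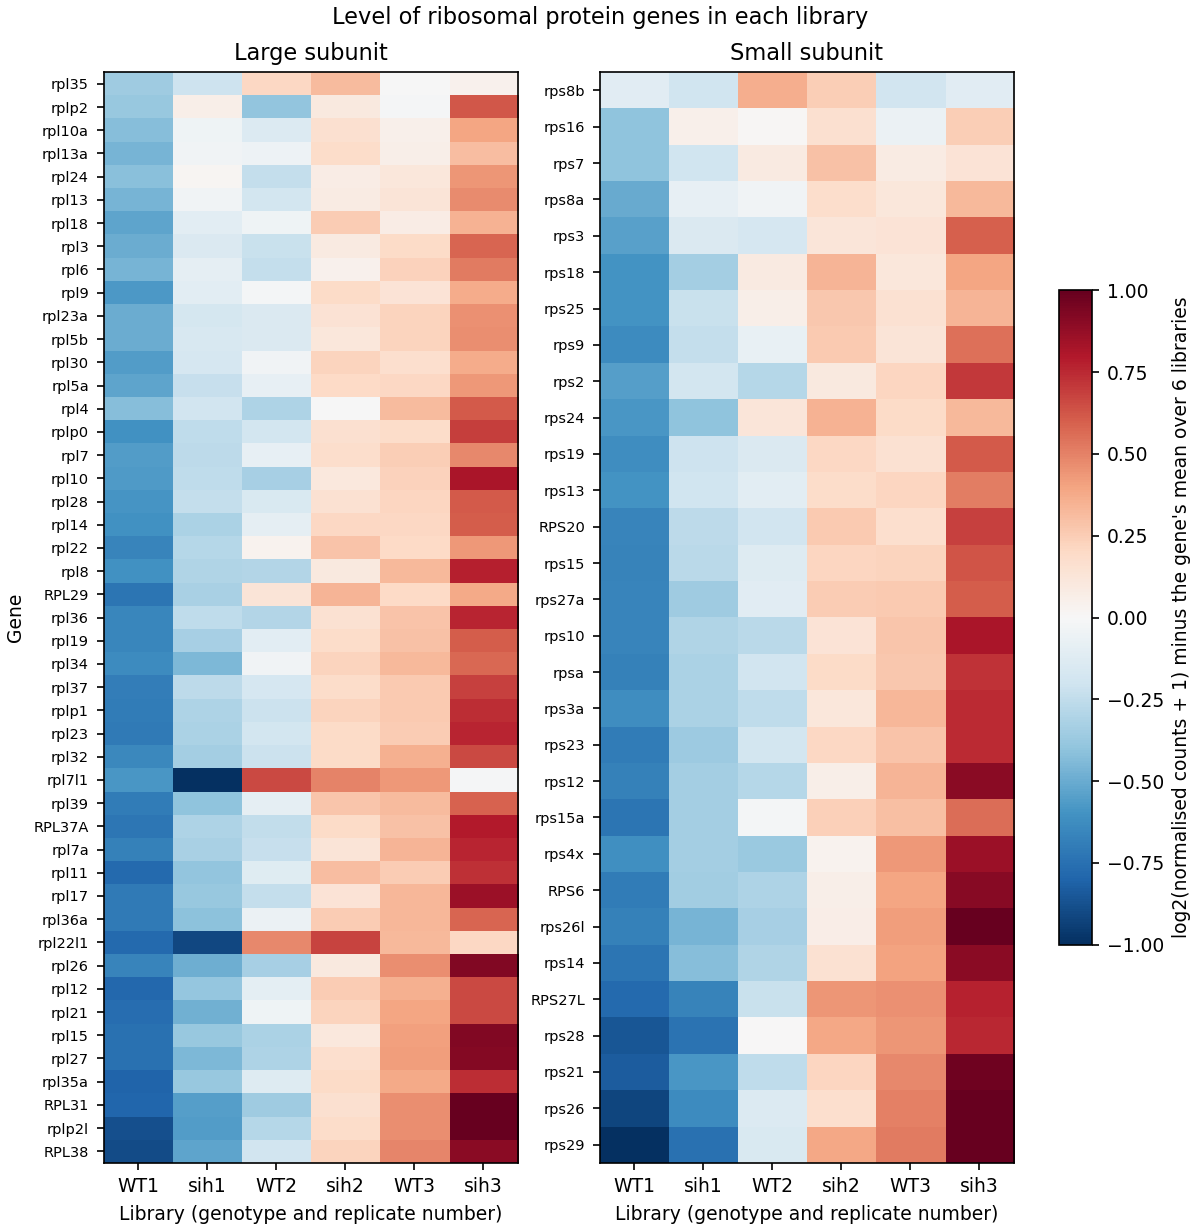
Level of the tested members that are reported by name in each of the 6 libraries, as log2(normalised counts + 1) minus the gene's own mean, for the large (left) and small (right) subunit. Genes are ordered by their difference between WT replicates 3 and 1, and nearly all are lowest in WT replicate 1 and highest in sih replicate 3.

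The members varied more between replicate numbers than between genotypes. Of the 81 tested, 77 were lowest in WT replicate 1 and 75 were highest in sih replicate 3. Among WT libraries alone, 80 of 81 members were higher in replicate 3 than in replicate 1, with a median difference of 0.93 for the large and 0.91 for the small subunit and of -0.017 over all genes tested. Among sih libraries the same medians were 0.97 and 0.96. The counts of members were not set beside the same counts over all genes or over other abundant genes. A signed median over all genes does not show how far single genes moved between replicate numbers. Same-numbered libraries resembled each other over 13248 genes (correlations of 0.932, 0.884 and 0.852), so variation by replicate number was not confined to the members. The labels do not say what a replicate number marks, such as a clutch or a day. The widest difference between WT replicates 3 and 1 was that of rps29 (1.52), followed by rps26 (1.42) and RPL38 (1.39), and it was narrow for rps16, rpl35 and rplp2 (0.35, 0.36 and 0.36).

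The spread of the members' changes was compared between pairs. Across the 80 members with a mean of at least 1000 normalised counts, the changes in pairs 2 and 3 correlated with Pearson's r = 0.809 and Spearman's rho = 0.807. Both also correlated with WT replicate 3 minus WT replicate 2 (r = 0.806 and 0.758, rho = 0.819 and 0.716). That difference shares WT replicate 2 with pair 2, with the same sign, and WT replicate 3 with pair 3, with the opposite sign. With the change in pair 1 its r was 0.170 and rho -0.280. Between pairs 1 and 2 r was 0.302 and rho -0.0973, and between pairs 1 and 3 r was 0.556 and rho 0.0747, so that for pair 1 the value depends on the measure. Genes are not independent replicates, and pairs share the scaling, so these values describe the members only. RPL31, rps26l, rps29 and rpl26 had small steps in pair 1 (0.25, 0.21, 0.26 and 0.17) and larger ones in pair 3 (0.61, 0.58, 0.49 and 0.46). rpl9, rps8a, rpl13a and rpl30 went the other way, with 0.47, 0.42, 0.44 and 0.40 in pair 1 and 0.24, 0.21, 0.25 and 0.20 in pair 3.

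**Figure D5:**
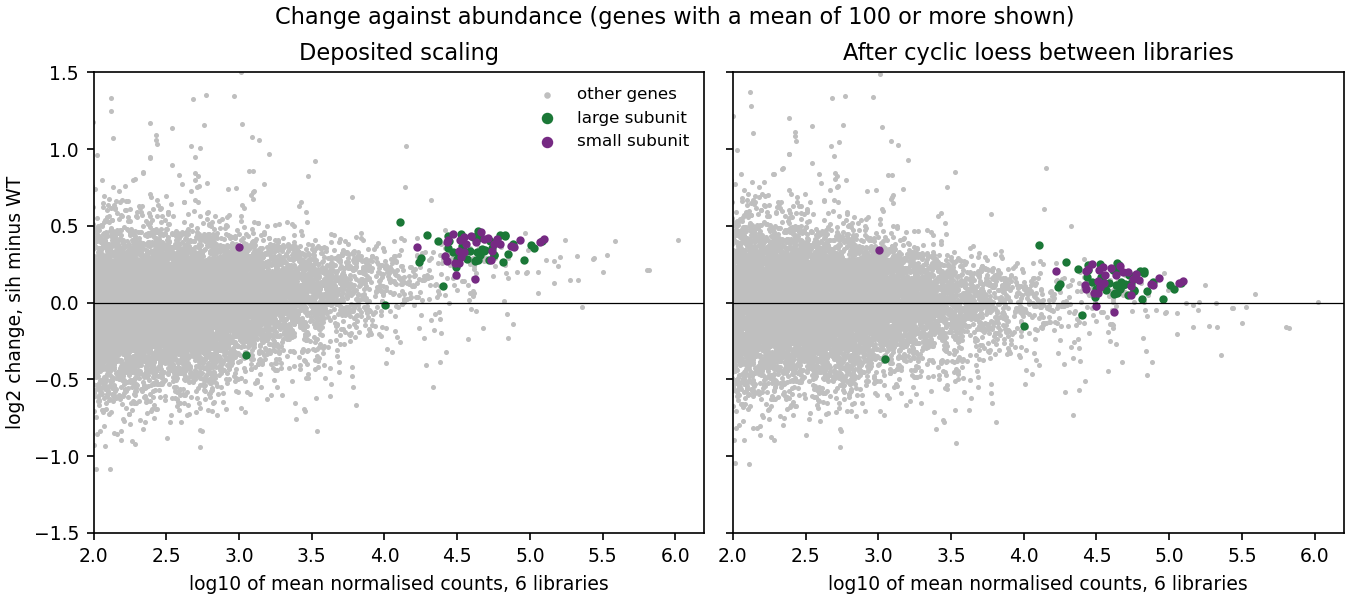
Log2 change, sih minus WT, against the log10 of the mean normalised counts over 6 libraries, with the deposited scaling (left) and after cyclic loess between libraries (right), for other genes (grey), large subunit (green) and small subunit (purple) genes, showing genes with a mean of at least 100 and changes within 1.5. With the deposited scaling abundant genes in general lie above 0, with the ribosomal protein genes in the upper part of them, and after loess the members' medians are 0.12 and 0.15.

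The rise of the ribosomal protein genes went with a rise of abundant transcripts in general. Among the 326 genes with a mean of at least 10000 normalised counts in either genotype, of which 78 (23.9%) were members, a paired fit on these genes alone called 182 higher (55.8%) and 11 lower (3.37%). Of the members there 75 were called higher, and of the 248 other genes 107 (43.1%). The median change of those other genes was 0.18, against 0.35 for large and 0.38 for small subunit genes. The gap between them was not tested. With cyclic loess, which takes out a trend with abundance between libraries and to which the members contribute, 5 members rose, among them rplp2 (0.37, adjusted p = 0.00262), rpl36, RPL37A and rpl11 (adjusted p = 0.0255, 0.0393 and 0.0458), beside 2.28% of all genes. rpl7l1 fell there too, as did 2.79% of all genes (-0.37, adjusted p = 0.0187).

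The scale also set the size of the change. The deposited factors equal the trimmed-mean (TMM) factors computed here from the recovered reads. With scaling by library totals the median change of all genes was -0.18, and those of the large and small subunit were 0.16 and 0.20. These lie 0.34 and 0.38 above it. A single factor per library shifts the log2 change of all well-counted genes alike, so this gap could hardly change. On that scale 13 large and 7 small subunit genes rose (0.788% of all genes did) and rpl7l1 fell (as did 9% of all genes), and the signs of rpl35, rps7 and rps24 turned negative (-0.079, -0.032 and -0.0070).

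The number of members called in the paired fit varied with the scaling and the filter. With relative log expression 30 large and 26 small subunit genes rose, beside 3.6% of all genes that rose and 2.7% that fell. With the upper quartile 35 and 26 rose (3.01% and 2.68%), and with TMM estimated without the members and red cell genes 31 and 25 (2.65% and 2.34%). A pseudocount of 0.1 left 23 and 20 higher and ended the call of rpl7l1 (1.17% and 0.631%), and with no filter 29 and 23 were higher (2.07% and 1.53%). A minimum of 1 CPM in 3 libraries gave 45 and 30 (5.39% and 4.23%), the same counts as a mean of at least 1000 (20.3% and 6.43%). Without the block, no setting called a member, while 0.0307% of all genes were called higher after loess, 0.44% of those with a mean of at least 1000 and 1.53% of those with at least 10000.

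Of 7 ribosomal protein or related genes whose names fall outside the rule, 5 rose and 0 fell, beside 2.77% and 2.07% of all genes. Their median change was 0.36. With library totals the median was 0.17, against -0.18 over all genes. After loess it was 0.15, and 1 of the 7, faua, was called, higher in sih, as were 2.28% of all genes. faua rose by 0.47 ± 0.078 (adjusted p = 0.00148), rps27.1 by 0.37 ± 0.076 and rps27.2 by 0.32 ± 0.075. gnb2l1, the gene of the small subunit scaffold Rack1, was at 55293, 65802 and 111222 normalised counts in WT replicates 1, 2 and 3 and at 69986, 91353 and 161383 in sih replicates 1, 2 and 3. It was higher in sih in each pair and rose by 0.45 ± 0.084 (adjusted p = 0.00388). faub was at -0.080 ± 0.11 (adjusted p = 0.755) and rsl24d1, an rpl24-like assembly factor, at 0.074 ± 0.087 (adjusted p = 0.704).

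Other genes whose mRNAs are known or reported in mammals to carry the TOP tract, or to be controlled with ribosomal proteins, were higher in part. Of 31 tested, 10 rose and 1 fell, with a median of 0.22, beside 2.77% and 2.07% of all genes. The elongation factor genes eef1a1l1, eef2b and eef1db rose by 0.40 ± 0.10, 0.41 ± 0.088 and 0.33 ± 0.075, and EIF3F and eif3ha, of the initiation factor eIF3, by 0.37 ± 0.075 and 0.32 ± 0.076. With library totals as the scale the list's median was 0.034, against -0.18 over all genes. After loess 1 of its genes was called, lower in sih, as were 2.79% of all genes. That gene, npm1a, encodes the nucleolar protein nucleophosmin and was at 2427, 4479 and 3439 normalised counts in WT replicates 1, 2 and 3 and at 1478, 2892 and 2064 in sih replicates 1, 2 and 3. All 3 sih libraries lay below their WT partners, and npm1a fell (-0.69 ± 0.079, adjusted p = 2.05e-05).

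Some genes of ribosome assembly were lower in sih. Of 70 tested, 12 fell and 2 rose, with a median change of -0.15, beside the 2.07% of all genes that fell. Those with the smallest p were ebna1bp2, the gene of a large subunit assembly factor (-0.74 ± 0.11, adjusted p = 0.000691), the rRNA methyltransferase gene nop2 (-0.75 ± 0.14), the nucleolar GTPase gene gnl3 (-0.58 ± 0.11), MRTO4 (-0.56 ± 0.11), whose yeast counterpart holds the place of the stalk protein P0 in precursors, and rrs1 (-0.55 ± 0.11), which brings in the 5S particle. ebna1bp2 was at 493, 1278 and 803 normalised counts in WT replicates 1, 2 and 3 and at 264, 969 and 427 in sih replicates 1, 2 and 3. Replicates 2 were the highest in both genotypes, and each sih library was below its WT partner. The genes that rose were ddx21, an RNA helicase of rRNA transcription (0.59 ± 0.080, adjusted p = 0.000159), and bysl, of small subunit assembly (0.35 ± 0.087), which was named after its value was seen. With 1 library (unblocked fit) or 1 pair (paired fit) left out, the changes of ebna1bp2 and MRTO4 ran over -1.24 to -0.31 and -1.04 to -0.049, those of nop2, gnl3 and rrs1 over -0.91 to -0.51, -0.68 to -0.44 and -0.71 to -0.41, and without pair 1 none of the list was called. After loess 16 of these 70 genes were called, counting both directions, beside 2.28% of all genes higher and 2.79% lower. The list's median was then -0.19.

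Of 31 tested genes that control the translation of ribosomal protein mRNAs, 4 rose and 0 fell, with a median of 0.14, beside 2.77% and 2.07% of all genes. They were sesn2, a stress-induced inhibitor of mTORC1 (0.66 ± 0.11), akt1s1 and tsc2, further inhibitors of the pathway (0.32 ± 0.081 and 0.38 ± 0.10), and the stress transcription factor gene atf4b1 (0.27 ± 0.074). Under scaling by library totals sesn2 alone of these passed (adjusted p = 0.0141). Among 16 genes of the p53 response 1 rose, tp53inp1 (0.47 ± 0.11, adjusted p = 0.0189), and cdkn1a and mdm2, classical targets chosen after their values were seen, were at 0.25 ± 0.15 and 0.14 ± 0.10 (adjusted p = 0.414 and 0.485). With 2.77% of all genes higher, a single gene of 16 is no result about that list.

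Blood cell markers differed between the genotypes beside these genes. All 14 entries of a red cell list rose, beside 2.77% of all genes. The list took 0.152% to 0.184% of reads in WT and 0.659% to 0.860% in sih. Of 9 genes of neutrophils and macrophages 5 fell, beside 2.07% of all genes. That list took 0.00578% to 0.00943% of reads in WT and 0.00263% to 0.00363% in sih. In such bulk samples a change in the number of cells of a type and a change in RNA per cell cannot be told apart. With the red cell genes left out of the denominator, the large subunit took 1.09 percentage points more in sih and the small subunit 0.818. Both differences had to widen by this step, since the red cell list's share was higher in sih. Reads of the members that come from red cells stay counted in it. The part of these blood cell differences in the members' rise was not tested.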

How the data were processed

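RNA selected for poly(A) from tail cells was sequenced in 3 WT and 3 sih libraries, per the labels' protocols. Per the submitters' processing notes, the study used Zv9, TopHat, edgeR 3.0.8 and HTSeq 0.5.3p5; the notes as held here assign no step to any of them. The values the authors deposited are a signal scale, normalised read counts. Every value above 0 was a whole multiple of its library's smallest value (100.0% within a tolerance of 1e-06), so whole reads were recovered, 1 read being worth 0.826 to 1.43 normalised counts. The design had allowed for raw or normalised counts, and the test for normalised counts was used.

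limma 3.58.1 (R 4.3.3; trend, two-sided) was run on log2(value + 1) for all 22813 genes whose mean reached 1 in at least 1 genotype, with genotype alone as the planned model. Replicate numbers pair the libraries because all 3 same-numbered correlations, over 13248 genes with a mean of at least 50, exceed 0.1; the labels do not say why. The blocked fit therefore gives the changes and calls in the text, and the planned unblocked fit called 0 genes. Folds understate changes of genes with few reads. edgeR 4.0.16 and DESeq2 1.42.0 were run on recovered reads; with the block they called 1797 and 986 genes. Exact permutation tests were used for shares and ratios.

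Members and lists were chosen with earlier results of these data known. Named by rule were members called in either fit, the 4 largest rises and falls per subunit (mean of at least 50), members under 10% of their subunit's median, paralogs, ribosomal protein genes outside the naming rule, and from other lists up to 6 called genes by smallest p; of the blood and tail lists counts alone are given. A few genes that the rule names are not reported here, though counts and medians include them. A part of the rule on levels per coding length lapsed, since no lengths or sequences were used here, and levels are not compared between genes. The labels do not say that libraries came from separate clutches, so p-values rest only on the spread between these libraries, which may be technical. In limma that spread is in part shared between genes of similar abundance. Alternatives were other scalings, filters, pseudocounts, tools, and leaving out libraries or pairs.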

Additional observations from a re-analysis of the deposited data

How the results depend on the processing

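Without the replicate block the count of called members was 0 in every setting run, and over all genes it was 0 except with a minimum mean of 1000 (13), of 10000 (5), cyclic loess (7) and DESeq2 (48). With the block, the deposited scaling and TMM gave 1105 genes, 41 large and 25 small subunit genes. The counts were 1438 genes, 31 large and 26 small subunit genes with relative log expression; 1298 genes, 36 large and 26 small subunit genes with the upper quartile; 2249 genes, 14 large and 7 small subunit genes with library totals; and 1138 genes, 32 large and 25 small subunit genes with TMM estimated without members and red cell genes. They were 410 genes, 23 large and 20 small subunit genes with a pseudocount of 0.1, 912 genes, 30 large and 23 small subunit genes with no filter, 1436 genes, 46 large and 30 small subunit genes with 1 CPM in 3 libraries, 790 genes, 46 large and 30 small subunit genes at a mean of 1000, 193 genes, 45 large and 30 small subunit genes at a mean of 10000 and 1155 genes, 5 large and 1 small subunit genes with cyclic loess. edgeR with the block gave 1797 genes, 46 large and 30 small subunit genes, and DESeq2 with the block 986 genes, 46 large and 30 small subunit genes. Settings that combine the block with another scaling or filter, the minimum of 10000 and loess were chosen after the data were seen. With a library or pair left out, the counts ranged from 0 to 504 genes (244 without pair 3), 0 to 9 large and 0 to 5 small subunit genes. The median change stayed positive throughout. It was 0.12 to 0.57 (large) and 0.12 to 0.62 (small) with 1 library left out of the unblocked fit. In the paired fit without pair 1, 2 or 3 it was 0.34, 0.36 and 0.34 (large) and 0.40, 0.38 and 0.35 (small). It was 0.16 and 0.20 with library totals and 0.12 and 0.15 with loess. The differences in read share stayed positive with 1 library left out, at 0.267 to 1.99 (large) and 0.184 to 1.51 (small) percentage points, and the difference of the large to small ratio ran from -0.0388 to 0.000633. The sign of some small changes turned. With library totals, with and without the block, rpl35 was at -0.079, rps7 at -0.032, rps24 at -0.0070 and rsl24d1 at -0.11; with loess they were at -0.082, -0.062, -0.020 and -0.025. rpl22l1 was at 0.027 by edgeR and 0.037 by DESeq2 without the block, and at 0.041 and 0.034 without pairs 1 and 3. rsl24d1 was at -0.058 without pair 2 and faub at 0.013 without pair 1. With 1 library or pair left out, changes ran over -0.72 to 0.070 (rpl7l1), -0.41 to 0.43 (rpl22l1), -0.048 to 0.23 (rpl35), -0.027 to 0.51 (rpl34), -0.034 to 0.49 (RPL29), -0.035 to 0.58 (rpl21), -0.023 to 0.68 (rpl26), -0.17 to 0.13 (rps8b), -0.0092 to 0.29 (rps7), -0.069 to 0.42 (rps24), -0.088 to 0.71 (rps28), -0.050 to 0.77 (rps26), -0.0031 to 0.73 (rps26l), -0.17 to 0.29 (rsl24d1), -0.46 to 0.39 (faub) and -0.0023 to 0.81 (tsc2). The cause of these shifts was not tested. The ranges of single genes pool unblocked fits without 1 library and paired fits without 1 pair.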
